A study of Mus musculus with 8 samples.

Results

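Laminins are the cross-shaped glycoproteins that polymerize into the first sheet of a basement membrane, the thin matrix layer under epithelia and around vessels, muscle fibres and nerve fibres. Each secreted laminin is a trimer of an alpha, a beta and a gamma chain, every chain the product of its own gene, and the alpha chain carries the domains that bind integrins and dystroglycan on the cell surface. In the cochlea, laminins lie in the basilar membrane region, around the capillaries of the stria vascularis and around the Schwann cells of the spiral ganglion. The 9 laminin chain genes described here (Lama2, Lama3, Lama4, Lama5, Lamb1, Lamb2, Lamb3, Lamc1 and Lamc3) were found by gene symbol among 21895 genes, and Lama1, a further alpha chain, is given beside them.

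RNA-seq had been made from whole cochleae of miR-29a-/- (KO) mice and of miR-29a+/+ (WT) mice, in 4 libraries of each genotype, named WT1 to WT4 and KO1 to KO4. Both genotypes were on the C57BL/6 background, came from heterozygous breeding and received no treatment in the labels; the deletion is present in the whole animal and not in a single cell type. The design text of the series gives an age of 21 days, whereas the methods of the study give an older one for the RNA-seq mice. The age entered no comparison. The labels do not say that the libraries came from separate animals, so that the p-values below measure the spread between libraries, which may be partly technical. The deleted microRNA was not measured in this table, and the genotype labels were therefore not checked against it.

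MicroRNAs guide the silencing of messenger RNAs that pair with bases 2 to 8 of the microRNA, the seed, mostly in the 3′-UTR. The miR-29 family is known for many targets among matrix genes, and the comparison asks how the laminin messenger RNAs of the cochlea differ when miR-29a is missing. The sequences are shown because the seed decides which laminin messenger RNAs carry a matching site. The mature miR-29a was the product of Mir29a at chr6:31062673-31062694 on the minus strand of GRCm38.p6 (RefSeq), and the other members of the family shared its seed (capitals), 5′ to 3′:
mmu-miR-29a-3p: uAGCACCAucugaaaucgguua
mmu-miR-29b-3p: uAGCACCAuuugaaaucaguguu
mmu-miR-29c-3p: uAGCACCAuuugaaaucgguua

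Counted from the 5′ end, miR-29c-3p differed from miR-29a-3p by C10U alone. Outside the seed, miR-29b-3p differed from it by C10U, G18A, U21G and A22U, and was longer by its last base. A site that pairs with the seed reads TGGTGCT in the transcript. In the longest annotated 3′-UTR (GENCODE M21), 1 of these 10 laminin genes, Lamc1, held this word, and 9 did not. The Lamc1 site was at chr1:153220069-153220075 on the minus strand of GRCm38, in exon 28 of 28 of ENSMUST00000027752, at bases 1398 to 1404 of a 3′-UTR of 2551 bases. In Lamb2, for which the study also listed a site, the listed bases were found instead in the coding sequence of ENSMUST00000065014, in exon 18 of 33, with the word at chr9:108485520-108485526 on the plus strand. Both are printed with the word in capitals:
Lamc1, 3′-UTR: ttatctgacacacTGGTGCTat
Lamb2, coding sequence: agccccacgtctTGGTGCTa

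Length has to be kept in view when these matches are read. The 3′-UTR of Lamc1 was the longest of the laminin genes, and the shortest, of 110 bases, was that of Lamb2. The word occurred in 13.1% of all 21007 genes with an annotated 3′-UTR, in 22.2% of those with at least 1000 bases of 3′-UTR, and in 2.51% of those with 110 to 370 bases, the range of most laminin genes. In coding sequence, 4 of the 9 genes held it (Lama3 at 1 place, Lama4 at 3, Lama5 at 4 and Lamb2 at 1), and 42.1% of all genes with at least 3000 coding bases did so. A match describes the letters only and is not evidence of binding. In another annotated Lamc1 transcript, ENSMUST00000161744, the same bases of the genome are read as coding sequence. The study did not rest on sequence alone. It reported lower luciferase activity of Lamb2 and Lamc1 reporters with a miR-29a mimic, and no significant lowering once the site was mutated. A miR-29a inhibitor raised both mRNAs in cultured cells. LAMB2 staining of the basilar membrane was reported as stronger in KO cochleae. By qRT-PCR and Western blot, it reported more Lamb2 and Lamc1 mRNA and protein in KO cochleae. Those assays are not part of the values below.

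The values are FPKM, fragments scaled by transcript length and by the mapped fragments of the library, so that levels of different genes can be set side by side. Column totals ran from 249221 to 288695 FPKM, and the relative depth, estimated from the lowest values, from 0.953 to 1.17 times the median library, but the number of reads behind a value is unknown. WT1 stood apart from the other libraries. Its 10 most abundant genes took 17.6% of all FPKM, against 8.50% to 10.9% in the other 7, and its correlation across genes on the log2 scale was 0.725 to 0.821 with the other WT libraries but 0.852 to 0.920 with the KO libraries. KO4 likewise correlated more with WT2 and WT4 (0.960 and 0.963) than with the other KO libraries (0.924 to 0.946). WT4 in turn was nearest to KO4 (0.963, against 0.962 with WT2), and correlated less with WT3 (0.920) than with KO2, KO3 or KO4. The correlations thus did not part the libraries by genotype. The summed FPKM of 8 marrow markers (globins, Alas2 and neutrophil granule genes) was 13660 in WT1 and between 342 and 3194 in the other WT libraries, and it was between 4588 and 12560 in the KO libraries. WT3 lay at the other end from WT1, with 342 against 2266 in WT2 and 3194 in WT4. It also had the lowest correlations with KO1, KO2 and KO3 (0.822, 0.850 and 0.832). The results without WT1 keep WT3 in the WT group. WT1 was the lowest of all 8 libraries for 5 of the 9 laminin genes. Results are therefore also given without WT1, the calls of Lamc1, Lamb3 and the matrix partners also without KO4, and the part of marrow RNA in the results was not tested.

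Among the laminin genes, Lamc1 and Lamb3 were higher in KO cochleae, by about the same factor, and no laminin gene was lower. Lama4 was higher in every KO library than in any WT library but missed the threshold of the test. For Lama2, Lama3, Lama5, Lamb1, Lamb2 and Lamc3, KO and WT libraries overlapped. Differences were tested with limma on log2(FPKM + 0.1) over all 14990 genes whose mean FPKM reached 0.5, and a gene was called at an unadjusted two-sided p under 0.05, the threshold the study used. All 9 laminin genes passed the filter, 2 were called higher and 0 lower. Among all tested genes, 4.61% were called higher and 0.507% lower. After Benjamini-Hochberg adjustment over all tested genes, 0% of genes passed 0.05 in this fit (767 did so unadjusted), and the adjusted p-values of the laminin genes in limma were 0.947 to 0.999. FPKM on the log2 scale with the pseudocount understate the change of low genes, which touches Lama3 most.

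**Figure D1:**
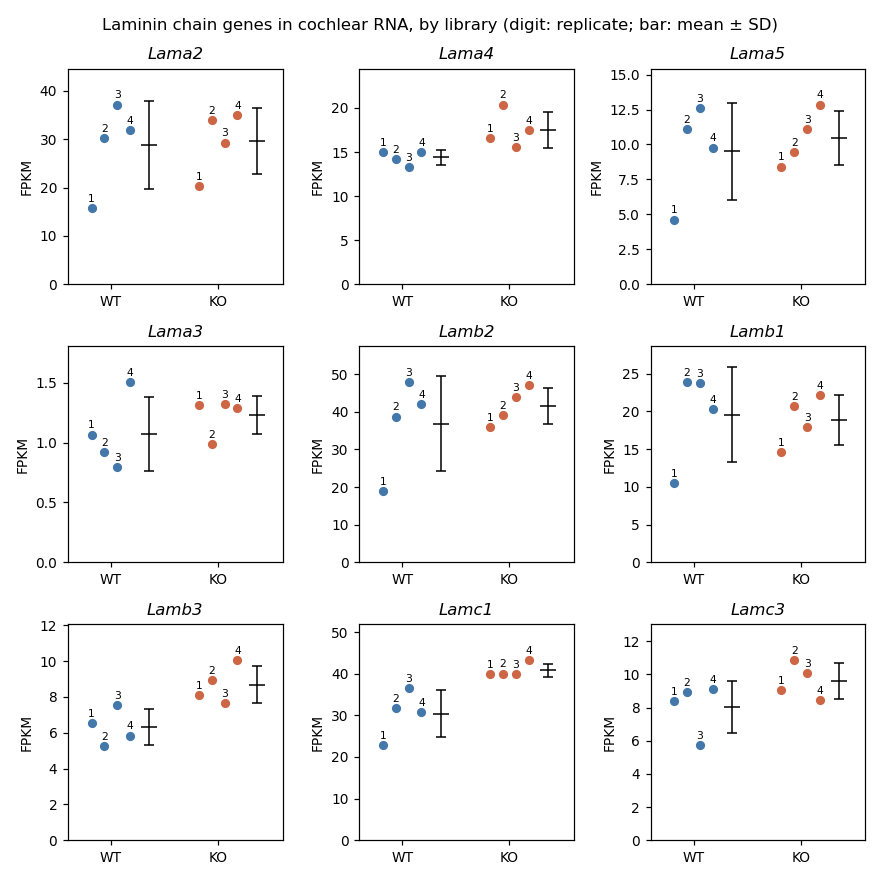
FPKM of the 9 laminin chain genes in each library (vertical axes, starting at 0), with WT libraries in blue and KO libraries in orange, digits giving the replicate and bars the mean ± SD of 4 libraries. All KO points of Lama4, Lamb3 and Lamc1 lie above all WT points, and WT1 is the lowest point for Lama2, Lama5, Lamb1, Lamb2 and Lamc1.

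Lamc1 (chr1:153218922-153332786, minus strand; these and all later coordinates are on GRCm38) encodes the gamma1 chain, the gamma chain of most laminins. Its level was 22.8, 31.7, 36.5 and 30.7 FPKM in WT1 to WT4 and 40.0, 40.0, 39.9 and 43.2 FPKM in KO1 to KO4. Every KO library was above every WT library, as for 3.02% of all tested genes (0.487% lay below in every KO library), and the KO libraries lay within a much narrower range than the WT libraries. The mean was 30.4 ± 5.65 FPKM in WT and 40.8 ± 1.61 FPKM in KO (SD, n = 4 each), and the log2 fold change was 0.44 with a standard error of 0.16 (limma, unadjusted p = 0.0212, adjusted p = 0.947), or 1.36-fold. The 95% confidence interval ran from 0.08 to 0.80. Of all tested genes, 15.4% had a higher log2 fold change. Without WT1 the log2 fold change was 0.31 (limma, unadjusted p = 0.018), and it lost the call when KO4 was left out (0.41, unadjusted p = 0.0527).

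Lamb3 (chr1:193207699-193343878, plus strand) encodes the beta3 chain, which joins the chain of Lama3 in the laminin that anchors epithelia through hemidesmosomes. Its level was 6.56, 5.26, 7.57 and 5.84 FPKM in WT1 to WT4 and 8.11, 8.92, 7.68 and 10.04 FPKM in KO1 to KO4. The groups did not overlap, although the lowest KO library was close to the highest WT library. The mean was 6.31 ± 0.994 FPKM in WT and 8.69 ± 1.04 FPKM in KO (SD, n = 4 each), with a log2 fold change of 0.46, a standard error of 0.16 and a 95% confidence interval from 0.09 to 0.83 (limma, unadjusted p = 0.0212, adjusted p = 0.947). WT1 was not the lowest library for this gene, and without it the value was 0.48 (unadjusted p = 0.0183). The call was lost when WT2, WT4, KO2 or KO4 was left out, with unadjusted limma p-values of 0.0633, 0.0549, 0.0516 and 0.0633. Lamb3 overlaps the protein-coding genes Hsd11b1 and G0s2 on the opposite strand, and whether strand was used in the counting is not given in the sources used here, so that its FPKM are uncertain to that extent.

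Lama4 (chr10:38965515-39110188, plus strand) encodes the alpha4 chain of the basement membranes of vessels and peripheral nerve. Its level was 15.0, 14.2, 13.3 and 15.0 FPKM in WT1 to WT4 and 16.6, 20.4, 15.6 and 17.5 FPKM in KO1 to KO4. All KO libraries were above all WT libraries, and WT1 was among the highest WT libraries here, unlike for Lamc1. The log2 fold change was 0.28 with a 95% confidence interval from −0.02 to 0.57 (limma, unadjusted p = 0.0605, adjusted p = 0.947), and the means were 14.4 ± 0.822 and 17.5 ± 2.07 FPKM (SD, n = 4 each). Without WT1 it was 0.30 and passed the threshold (unadjusted p = 0.042), as it did with all 8 libraries when genes of low level were kept in the fit (0.28, unadjusted p = 0.0489). The summed FPKM of 6 endothelial markers was 54.8 to 63.7 in WT and 60.5 to 71.4 in KO, with 0 of 6 called, and that of 4 pericyte markers was 62.2 to 80.5 in WT and 65.4 to 69.9 in KO, with 0 of 4 called. In the fit without WT1, in which Lama4 was called, 1 marker of each list was called higher too, Pecam1 of endothelium and Abcc9 of pericytes. That fit called 12.1% of all tested genes higher. The part of these cells in the Lama4 value was not tested. In RNA of a whole organ, more cells of a type and more RNA per cell cannot be told apart.

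Lamc3 (chr2:31887291-31946539, plus strand) encodes the gamma3 chain, which is found in a smaller set of laminins. It was at 8.39, 8.91, 5.73 and 9.10 FPKM in WT1 to WT4 and at 9.08, 10.8, 10.1 and 8.44 FPKM in KO1 to KO4. The KO libraries overlapped the WT libraries, of which WT3 was the lowest. The log2 fold change was 0.27 with a standard error of 0.18 (limma, unadjusted p = 0.172, adjusted p = 0.947), and without WT1 it was 0.30 (unadjusted p = 0.147).

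The alpha chains of broad use did not differ beyond the spread between libraries, and their intervals were wide. Lama2 (chr10:26980036-27619758, minus strand), whose alpha2 chain surrounds muscle fibres and Schwann cells, was at 15.8, 30.2, 37.2 and 32.0 FPKM in WT1 to WT4 and 20.2, 34.0, 29.3 and 35.1 FPKM in KO1 to KO4. WT1 and KO1 were the low libraries of their groups, the remaining libraries of both genotypes shared a range, and the log2 fold change was 0.08 with a 95% confidence interval from −0.58 to 0.74 (limma, unadjusted p = 0.789). Lama5 (chr2:180176373-180225859, minus strand), the most widely used alpha chain of adult epithelia and vessels, was at 4.63, 11.1, 12.6 and 9.78 FPKM in WT1 to WT4 and 8.42, 9.43, 11.1 and 12.9 FPKM in KO1 to KO4. Here too WT1 was far below the rest, and the log2 fold change was 0.21 with an interval from −0.49 to 0.91 (unadjusted p = 0.52). Without WT1 the values turned to −0.18 for Lama2 and −0.10 for Lama5, neither past the threshold (unadjusted p = 0.379 and 0.559). The summed FPKM of 6 Schwann cell markers, the cells whose basement membrane holds the alpha2 chain, ranged from 395 in WT1 to 1357 in WT3, and from 693 to 906 in KO, with 0 of 6 called. Without WT1, Mbp, a myelin protein gene, was called lower, in a fit that called 7.4% of all tested genes lower. The 6 skeletal muscle markers summed to 0.478 to 8.995 FPKM in WT and 2.68 to 306 FPKM in KO, the highest in KO3. Of them Mylpf, a myosin light chain of fast fibres, was called higher (limma, log2 fold change 2.48, unadjusted p = 0.0371). Their part in the Lama2 values was not tested.

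Lama3 encodes the alpha3 chain, the partner of the Lamb3 product in epithelia. It was the lowest of the 9 genes, at 1.07, 0.921, 0.795 and 1.504 FPKM in WT1 to WT4 and 1.32, 0.989, 1.33 and 1.29 FPKM in KO1 to KO4. The highest library of all was WT4, the groups overlapped, and the log2 fold change was 0.21 with an interval from −0.39 to 0.81 (limma, unadjusted p = 0.45), or 0.22 without WT1 (unadjusted p = 0.452). Lama1, the alpha chain of the early embryo, was at 2.19 to 3.57 FPKM in WT and 2.63 to 3.44 FPKM in KO, with a log2 fold change of 0.009 (unadjusted p = 0.966).

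The main beta chains did not differ beyond the spread between libraries either. Lamb1 (chr12:31265234-31329644, plus strand) encodes the beta1 chain of most early and many adult laminins. Its level was 10.4, 23.8, 23.7 and 20.3 FPKM in WT1 to WT4 and 14.7, 20.7, 17.98 and 22.2 FPKM in KO1 to KO4. The KO libraries lay within the range of the WT libraries, and the log2 fold change was 0.0035 with an interval from −0.63 to 0.64 (limma, unadjusted p = 0.99). Lamb2 (chr9:108479736-108490530, plus strand) encodes the beta2 chain of vessels, kidney filter and neuromuscular synapse. Its level was 18.9, 38.7, 47.8 and 42.1 FPKM in WT1 to WT4 and 36.1, 39.1, 43.9 and 47.1 FPKM in KO1 to KO4. WT3 was the highest library and WT1 the lowest, and the log2 fold change was 0.24 with an interval from −0.39 to 0.88 (unadjusted p = 0.403). Without WT1 it was −0.27 for Lamb1 and −0.05 for Lamb2 (unadjusted p = 0.122 and 0.726).

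With all 8 libraries, 9 of the 9 laminin genes had a log2 fold change above 0, with a median of 0.24 against 0.10 over all tested genes, and 7 of 9 were above that median of all genes. The direction of Lama2 and Lamb1 rested on WT1 and on the scaling between libraries, and that of Lama5 and Lamb2 on WT1. Against WT2 to WT4 only, 5 of 9 were above 0 and 4 below, and 3 were called higher (Lamc1, Lamb3 and Lama4) and 0 lower, in a fit that called 12.1% of all tested genes higher and 7.4% lower. When the libraries were scaled by the median ratio of genes, which brought the median of all tested genes from 0.10 to 0.0045, 7 of 9 were above 0 and 1 was called, Lamc1 (log2 fold change 0.34, limma, unadjusted p = 0.0158). Lamb3 then had 0.36 (unadjusted p = 0.0927). That scaling moved the share of calls that were higher in KO from 90.1% to 52.7% over all genes, and 2.68% of tested genes were called higher under it.

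**Figure D2:**
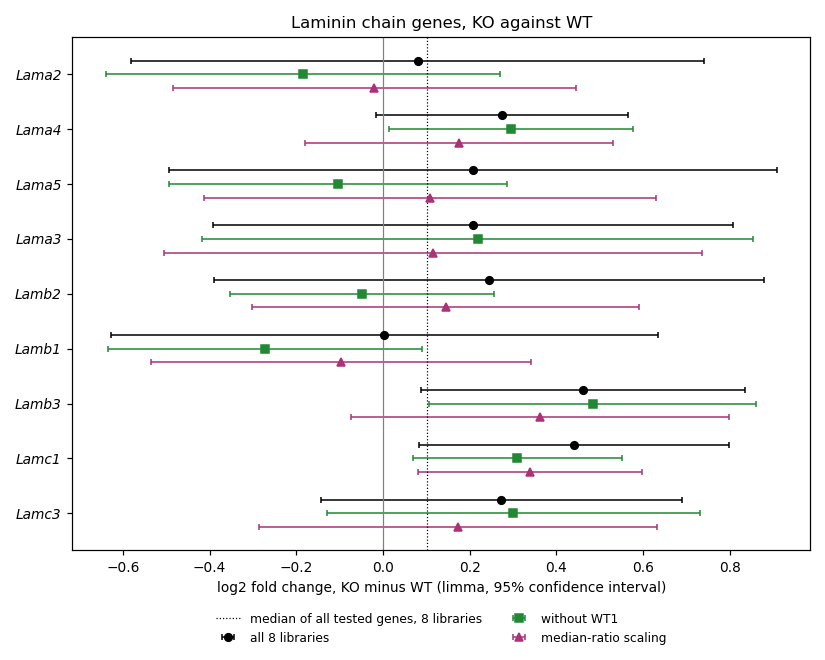
Log2 fold change of KO against WT for each laminin chain gene (horizontal axis), with the 95% confidence interval from limma, for all 8 libraries (circles), without WT1 (squares) and after median-ratio scaling (triangles), and the median of all tested genes as a dotted line. The interval of Lamc1 stays above 0 in all 3 fits, that of Lamb3 in 2 of them, and those of Lama2, Lama5, Lamb1 and Lamb2 span 0 in each.

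The order of levels was the same in both genotypes, from Lamb2, Lamc1, Lama2, Lamb1, Lama4, Lama5 and Lamc3 down to Lamb3 and Lama3. Neighbours in this order mostly shared a range of FPKM. In WT, the ranges parted only between Lama4 and Lama5 and between Lamb3 and Lama3. In KO, they parted at the same places and also between Lamc1 and Lama2, since all KO libraries had Lamc1 at 39.9 FPKM or more and Lama2 at 35.1 FPKM or less.

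Per chain class, the summed level of the gamma chains Lamc1 and Lamc3 parted the genotypes. Their FPKM summed to 31.2 to 42.2 in WT and 49.04 to 51.6 in KO, with means of 38.5 ± 4.92 and 50.4 ± 1.12 (SD, n = 4 each). The alpha chains summed to 56.9 ± 12.5 FPKM in WT and 61.9 ± 9.41 FPKM in KO, and the beta chains to 62.8 ± 18.6 and 69.1 ± 8.35 FPKM. Without WT1, the WT means were 40.9 ± 1.23 FPKM for Lamc1 and Lamc3, 62.9 ± 4.02 FPKM for the alpha chains and 71.7 ± 6.41 FPKM for the beta chains (SD, n = 3). The sums are given as a description, without a test.

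With all 8 libraries, the share of each chain in its class overlapped between the genotypes for the chains named next, and the shares were not tested. Among alpha chains, Lama2 took 49.6% ± 6.17 in WT and 47.4% ± 4.29 in KO, Lama4 26.7% ± 8.33 and 28.6% ± 4.11, and Lama5 16.3% ± 3.14 and 16.9% ± 2.10 (SD, n = 4 each). Among beta chains, Lamb2 took 58.0% ± 4.04 in WT and 60.2% ± 2.65 in KO and Lamb1 31.0% ± 2.79 and 27.2% ± 2.32, and Lamb3 11.0% ± 4.88 and 12.6% ± 1.15. Of Lamc1 and Lamc3 together, Lamc1 took 78.7% ± 5.59 in WT and 80.9% ± 2.16 in KO, and Lamc3 the rest. For Lama4, Lamb3 and Lama2 the overlap came from WT1. Lama4 took 38.8% of alpha chains in WT1 and 19.7% to 24.4% in the other WT libraries, against 24.9% to 33.8% in KO. Lamb3 took 18.3% of beta chains in WT1 and 7.76% to 9.57% in the other WT libraries, against 11.05% to 13.8% in KO. Lama2 took 40.8% of alpha chains in WT1 and 50.5% to 55.2% in the other WT libraries, against 41.1% to 50.2% in KO. Without WT1, the KO libraries thus lay above WT for Lama4 and Lamb3 and below WT for Lama2, and the other chain shares overlapped. Lama2 and Lama4 are parts of the same total, so their shares are not independent. For 4 against 3 libraries, an exact permutation test cannot go below p = 0.0571, and none was run on the shares.

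**Figure D3:**
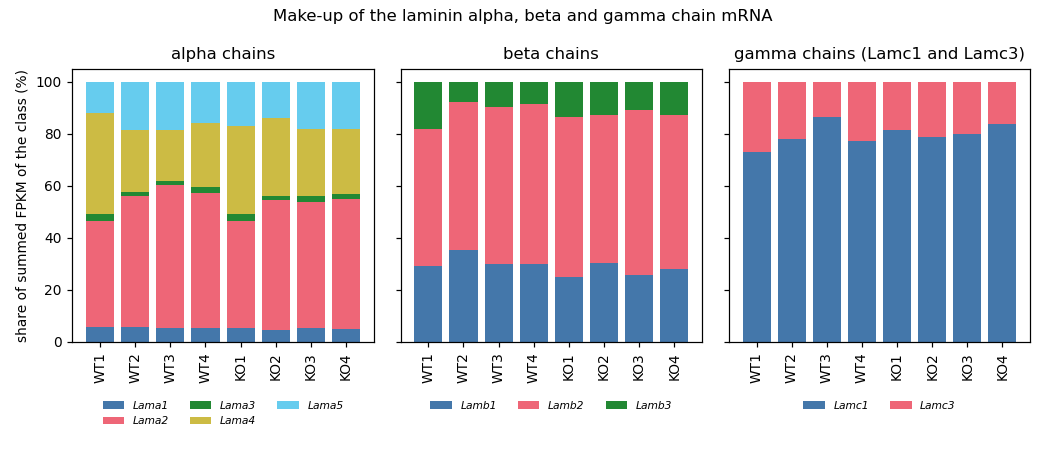
Share of each gene in the summed FPKM of the alpha, beta and gamma (Lamc1 and Lamc3) laminin chains (vertical axis, percent), as a stacked bar for each of the 8 libraries. Lama2, Lamb2 and Lamc1 are the largest share of their class in every library, and WT1 has the largest share of Lama4 and of Lamb3.

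Ratios of chains within a library do not depend on a common scaling of that library, and 7 pairs were compared with the exact permutation test, two-sided, in which 4 against 4 libraries cannot go below p = 0.0286. The largest difference was in Lamc1 over Lamb1, chains that join in the same trimers. Its log2 ratio was 1.13, 0.41, 0.62 and 0.60 in WT1 to WT4 and 1.45, 0.95, 1.15 and 0.96 in KO1 to KO4. The KO libraries were above WT2 to WT4 but not all above WT1, and the means were 0.69 ± 0.31 and 1.13 ± 0.23 (SD, n = 4 each; exact permutation p = 0.0857, adjusted over the 7 ratios p = 0.40). Lamb1 over Lamb2, which take the same place in a trimer, differed by −0.24 on the log2 scale (exact permutation p = 0.114, adjusted p = 0.40), and Lamc1 over Lamb2 by 0.20 (exact permutation p = 0.286, adjusted p = 0.667). The other differences were −0.24 for Lama3 over Lamb3, −0.20 for Lama2 over Lama4, −0.17 for Lamc3 over Lamc1 and 0.07 for Lama4 over Lama5, with exact permutation p-values of 0.514, 0.60, 0.571 and 0.914. In all 7 ratios the groups overlapped, and none passed the test. Without WT1 the differences were 0.58 for Lamc1 over Lamb1, −0.48 for Lama2 over Lama4 and 0.36 for Lamc1 over Lamb2, each with an exact permutation p = 0.0571, the smallest that 4 against 3 libraries allow. They were 0.40 for Lama4 over Lama5, −0.23 for Lamb1 over Lamb2, −0.25 for Lama3 over Lamb3 and −0.0056 for Lamc3 over Lamc1, with exact permutation p-values of 0.229, 0.229, 0.571 and 1.0.

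**Figure D4:**
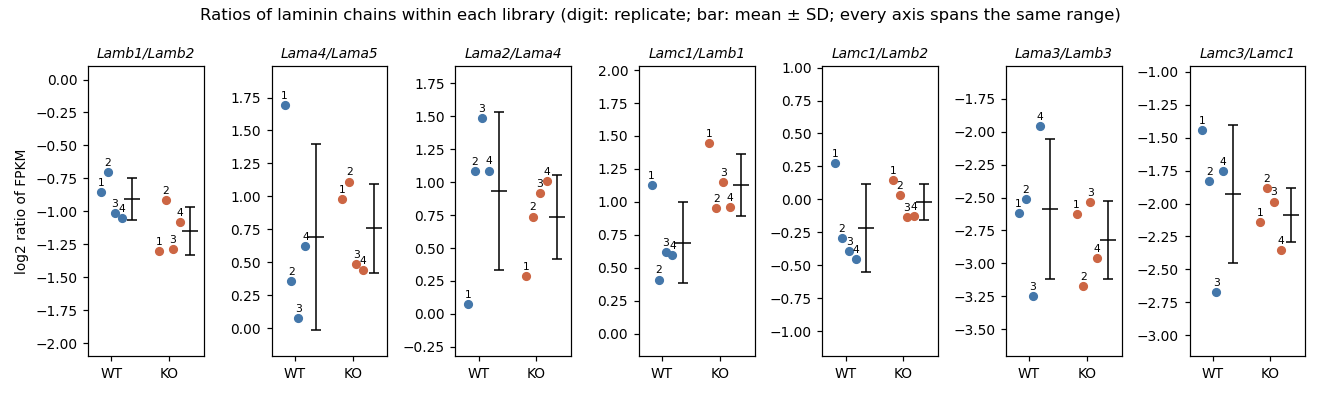
Log2 ratio of the FPKM of 2 laminin chains within each library (vertical axes, all spanning the same range), with WT in blue, KO in orange, digits for the replicate and bars for the mean ± SD of 4 libraries. KO and WT points overlap in each of the 7 panels. WT1 lies above the other WT libraries for Lama4 over Lama5, Lamc3 over Lamc1, and Lamc1 over both beta chains. It lies below them for Lama2 over Lama4.

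Laminins act through receptors and bind other basement membrane components, and these were examined as lists. Of the 7 laminin receptors, 0 were called, with a median log2 fold change of 0.17 that turned to −0.11 without WT1. Itgb1, the beta subunit of most laminin-binding integrins, had 0.22 (limma, unadjusted p = 0.194), and Bcam, a receptor for the alpha5 chain, 0.33 (unadjusted p = 0.441). Of 10 genes for the sugar chain by which dystroglycan binds laminin, 0 were called and the median was −0.0018 (−0.13 without WT1), with B4gat1 at −0.50 (unadjusted p = 0.303) and Rxylt1 at −0.16 (unadjusted p = 0.370). Without WT1, 1 of the 10 was called lower, Pomgnt1, a glycosyltransferase of that chain, in a fit that called 7.4% of all tested genes lower. Of 4 tested hemidesmosome genes 0 were called, with Cd151, a tetraspanin partner of integrins, at 0.52 (unadjusted p = 0.162) and Plec, a cytoskeletal linker, at 0.38 (unadjusted p = 0.385). Without WT1, Col7a1, the collagen of anchoring fibrils, was called lower among them, beside 7.4% of all tested genes. The 6 netrins, guidance proteins with a laminin-like N-terminal domain, had a median log2 fold change of −0.0049 (−0.21 without WT1) and 0 calls, with Ntng2 at 0.16 (unadjusted p = 0.268) and Ntn1 at 0.36 (unadjusted p = 0.369).

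Among components that are laid down beside laminin, Col4a1, Col4a2, Tinagl1 and Nid1 were called higher in KO cochleae. For Nid1 the groups overlapped, with WT3 at 22.4 FPKM and KO4 at 21.0 FPKM. Of 13 tested genes, these 4 were called higher and 0 lower, beside 4.61% and 0.507% of all tested genes. The median log2 fold change was 0.43, and the adjusted p-values of the 4 called genes in limma were 0.922 to 0.947. The same 4 were called without WT1, where the median was 0.21 and 12.1% of all tested genes were called higher, and without KO4. The other type IV collagen chains, Col4a3, Col4a4, Col4a5 and Col4a6, had log2 fold changes of 0.53, 0.38, 0.41 and 0.33 and were not called (limma, unadjusted p = 0.145, 0.239, 0.0909 and 0.254). Col4a2, a type IV collagen chain, had means of 10.1 ± 3.89 FPKM in WT and 23.1 ± 1.25 FPKM in KO (SD, n = 4 each), a log2 fold change of 1.29 (limma, unadjusted p = 0.00282). Col4a1, with which it forms trimers, had 16.5 ± 6.38 and 38.3 ± 3.96 FPKM, a log2 fold change of 1.32 (unadjusted p = 0.0034). Without WT1 the log2 fold changes were 0.94 for Col4a2, 0.95 for Col4a1, 0.53 for Tinagl1 and 0.35 for Nid1. Tinagl1, a matrix protein that binds laminin, had 0.86 (unadjusted p = 0.0214), and Nid1, which links laminin through the gamma1 chain to type IV collagen, had 0.43 (unadjusted p = 0.0253). The log2 fold change of Nid1 was thus near that of Lamc1, at 0.44, whereas the collagen values were larger; the difference between genes was not tested. After median-ratio scaling, 3 of the 4 remained called, without Nid1.

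Markers of other cells of the organ were set beside these values. Of 6 tested markers of cochlear epithelium, where the chains of Lama3 and Lamb3 are known from epithelia in general, 0 were called, with sums of 158 to 353 FPKM in WT and 206 to 273 FPKM in KO, while Oc90, an otoconial gene of this list, was below the filter. No gene was called among 5 hair cell, 3 spiral ligament fibrocyte, 4 neuron and 4 osteoblast markers with all 8 libraries. Without WT1, Pou3f4, a fibrocyte transcription factor, was called lower and 2 osteoblast markers, Dmp1 and Ibsp, higher. That fit called 12.1% of all tested genes higher and 7.4% lower. Neuron markers summed to 217 FPKM in WT1 and up to 712 FPKM in WT3, against 396 to 558 FPKM in KO, and osteoblast markers to 27.8 FPKM in WT3 and up to 321 FPKM in WT1, against 165 to 292 FPKM in KO. Of the 8 marrow markers, Alas2, an enzyme of haem synthesis in red cell precursors, was called higher (log2 fold change 1.78, limma, unadjusted p = 0.0492). Without WT1, 8 of 8 were called higher, in a fit that called 12.1% of all tested genes higher. Without WT1 and WT3, 7 of 8 were called higher. The part of these cells in the laminin values was not tested.

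The genes whose pattern over the 8 libraries was most like that of a laminin gene were found by the root mean square difference of log2(FPKM + 0.1), each gene centred on its own mean. For Lamc1 these were Map4k4 (0.0688), Carnmt1 (0.0843) and Wbp1l (0.0889), and for Lamb2 Trim37 (0.0579), Ptdss1 (0.0622) and Shb (0.0696). For the other laminin genes the nearest were 1810013L24Rik for Lama2 (0.0749), Ttf1 for Lama3 (0.122), Swap70 for Lama4 (0.0432), Ccdc13 for Lama5 (0.0490), Kdsr for Lamb1 (0.0647), Tmco4 for Lamb3 (0.132) and Nrp2 for Lamc3 (0.0717). None of these was a laminin gene. Without WT1, the genes named for Lamc1 were its 4th, 14th and 17th nearest, and those for Lamb2 its 17th, 19th and 51st. The genes named for Lama3 and Lama5 stayed nearest. Those for Lama2, Lama4, Lamb1, Lamb3 and Lamc3 became the 13th, 2nd, 5th, 4th and 6th. The distance also depends on a gene's own spread, a root mean square of 0.178 for Lama4 and 0.436 for Lama5. Among laminin genes themselves, Lama5 and Lamb2 were close (0.0999), with Lamb2 the 8th nearest of all genes to Lama5 and Lama5 the 36th nearest to Lamb2. Lama2 and Lamb1 were less close (0.122), with Lamb1 the 86th nearest to Lama2 and Lama2 the 85th nearest to Lamb1. All 4 shared the low value of WT1. Without WT1, Lamb2 was the 66th nearest gene to Lama5, and Lama5 the 316th nearest to Lamb2. Lamb1 was then the 305th nearest to Lama2, and Lama2 the 434th nearest to Lamb1. Lamc1 became the 6th nearest to Lamb3, but Lamb3 was only the 289th nearest to Lamc1 (1136th with all 8 libraries). The libraries are shared by all these comparisons, and the order describes these 8 libraries alone.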

How the data were processed

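Total RNA of whole cochleae was extracted by the authors with Trizol, depleted of ribosomal RNA, made into strand-specific libraries and mapped with Hisat2. The authors deposited FPKM per gene and library, that is, values divided by transcript length and by mapped fragments. The tool and annotation behind them are not given in the sources used here. The submitters' processing notes name the build mm9, but 19771 of 21760 matched gene identifiers, the 10 laminin genes included, had the coordinates of GRCm38 (GENCODE M21), which was used. The authors tested counts with DESeq2, and counts were not used here.

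FPKM were tested as log2(FPKM + 0.1) with limma 3.58.1 in R 4.3.3, with genotype as the only factor, all 8 libraries, variances moderated with a trend, a minimum mean of 0.5 FPKM and no further scaling. The fit was tested on simulated data. Depth is unknown, so no counting error is given. Ratios were tested by exact permutation in scipy 1.17.1. For each of the 9 genes, 0% of the 50-base words of its transcripts also occurred in a transcript of another gene (GENCODE M21). The 9 genes and the gene lists were chosen with earlier results of these data known. Some genes of these families are not reported here and were left out of lists and sums. Named were all laminin genes, the 2 genes of smallest p in each list and any called gene of a marker list. Genes named for a call without WT1, the type IV collagen chains and called genes of the basement membrane list beyond the first 2, and the likeness of laminin genes to each other were added after their values were seen. Alternatives were another pseudocount, filter, scaling, variance model, libraries 1 to 3 (the study's figure legend names as many), a block for replicate number and leaving out each library. Fits without WT1 and WT3, or with median-ratio scaling and without WT1, and those of the lists and shares, were chosen after seeing the data.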

Additional observations from a re-analysis of the deposited data

Results flagged for a closer look

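In the 4 KO libraries, the Lama3 level of KO2 was 0.989 FPKM and lay apart from the others, with a gap of 0.894 of the group's range. In the same libraries, Lamc1 was 43.2 FPKM in KO4, apart from the others by 0.966 of a range from 39.9 to 43.2 FPKM. Gaps above Dixon's 95% limit for 4 samples were looked for in 34 groups of values and found in these 2, and chance gives such a gap in about 1 of 20 groups.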

How the results depend on the processing

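The number of genes called was 767, 838 with a replicate block, 347 to 2922 when 1 library was left out (2922 without WT1, 377 without KO2, 347 without KO3), 3253 with median-ratio scaling without WT1 and 2430 without WT1 and WT3. Past the adjusted threshold (limma, Benjamini-Hochberg) were 0 genes, but 3 without the filter, 1 in libraries 1 to 3 and 0 to 1 when 1 library was left out. Of the laminin genes, 2 were called, but 3 without the filter (Lama4 added), 3 with median-ratio scaling without WT1, 1 with median-ratio scaling, 1 with quantile normalization, 0 in libraries 1 to 3 and 0 to 3 when 1 library was left out. The cause was not tested. Same-numbered libraries deviated from their group means with correlations of 0.419, −0.24, −0.17 and 0.21, so the numbers were not taken as pairs, and the replicate block left 2 laminin genes called. Log2 fold changes that changed sign were, with median-ratio scaling, −0.0197 for Lama2, −0.10 for Lamb1 and −0.0875 for Lama1. With quantile normalization they were −0.0160 for Lama2, −0.0722 for Lama3, −0.0931 for Lamb1 and −0.17 for Lama1. In libraries 1 to 3 they were −0.0380 for Lamb1, −0.0151 for Lama1 and 0.0168 for the ratio Lama3 over Lamb3. With median-ratio scaling and without WT1 they were −0.18 for Lama2, −0.10 for Lama5, −0.26 for Lamb1, −0.0405 for Lamb2 and −0.13 for Lama1. Without WT1 and WT3 they were −0.10 for Lama2, −0.0132 for Lama5, −0.24 for Lamb1 and −0.10 for Lama1. With 1 library left out, the ranges were −0.18 to 0.25 for Lama2, −0.10 to 0.37 for Lama5, −0.27 to 0.12 for Lamb1, −0.0481 to 0.40 for Lamb2, −0.14 to 0.0847 for Lama1 and −0.14 to 0.40 for the ratio Lama4 over Lama5. Lamc1 and Lamb3 kept their direction in every alternative, at 0.31 to 0.53 and 0.38 to 0.55 when 1 library was left out.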
